A study of Mus musculus with 24 samples.

Results

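Liver RNA of mice carrying the thyroid hormone receptor change Y147F was compared with that of wild-type (WT) mice, all hypothyroid and all given T3, the active thyroid hormone. The comparison rests on 6 of the 24 microarrays of the series, the 3 arrays whose titles begin with Y147F_T3 and the 3 whose titles begin with WT_T3. The other groups, used only for reference, are WT, a receptor knockout (KO) and a mutant with E125G and G126S (GS), each with T3 or with PBS alone, and Y147F with PBS, with 3 arrays each. Values are log2 intensities, differences are log2 values given ± SE, and the small number of arrays limits their precision.

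Wild-type mice were males of 8 to 9 weeks on a C57BL/6J background. They received an iodine-poor diet for 3 weeks with 0.02% methimazole, 0.5% perchlorate and 0.3% saccharin in the drinking water, then 20 µg T3 per 100 g body weight into the peritoneum, and livers were taken 6 h later. Y147F mice were males of 10 to 11 weeks on a C57BL/6JCrl background, given 0.05% methimazole and 1% perchlorate for 3 weeks, then T3 at 200 ng per g, which is the same dose, with 6 h in the sample labels. The Y147F arrays came in a later submission than all WT arrays. Saccharin is given in the sample labels of the WT mice and not in those of the Y147F mice. Genotype, submission, strain stock, age, drug dose and any difference in saccharin therefore cannot be told apart in any value of Y147F against WT below. KO and GS mice had the age range, drug doses and 6 h of the WT mice in the sample labels, and the same T3 dose where T3 was given. Their comparisons with WT therefore do not carry the differences in age and drug dose. Methimazole and perchlorate block hormone synthesis and iodide uptake by the thyroid, so all mice of both groups were hypothyroid before the injection.

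The receptor TRβ, encoded by Thrb, is a nuclear receptor that pairs with RXR on DNA and, with T3 bound, activates transcription of its targets. In liver it is the main T3 receptor and acts on deiodination, lipid and cholesterol metabolism. Besides this direct route, TRβ can act outside the nucleus through phosphatidylinositol 3-kinase (PI3K), and the tyrosine changed in Y147F is linked to that route. The comparison addresses whether liver transcripts present after T3 depend on that tyrosine.

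The arrays were alike in median and correlation, which do not measure array quality. The 6 arrays had medians of 5.88 to 5.98, and their correlation over all genes tested was 0.9953 to 0.9963 within WT_T3, 0.9927 to 0.9956 within Y147F_T3 and 0.9929 to 0.9961 between the groups. WT_T3 correlated with KO_T3 at 0.9886 to 0.9921 and with GS_T3 at 0.9894 to 0.9925. Y147F_T3 replicate 3 stood farthest from the others, at 18.8 on a first principal component of these 6 arrays that held 31.4% of their variance, where the others lay from -9.2 to 3.4. Markers of hepatocytes had a mean level of 14.35 to 14.42 in WT_T3 and 14.36 to 14.40 in Y147F_T3, and Alb, the albumin gene, read 15.16 to 15.19 over the 6 arrays. In whole tissue, fewer cells of a type and less RNA per cell cannot be told apart.

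After T3 a single gene of 14161 differed between Y147F and WT by limma's test with Benjamini-Hochberg adjustment at an adjusted p under 0.05, which is 0.00706% of the genes tested. It was Papss1, which makes the sulfate donor used by sulfotransferases, and it was lower in Y147F (-0.996 ± 0.153, 95% interval -1.32 to -0.68, adjusted p = 0.033). Without adjustment 1194 genes (8.43%) had a p under 0.05, 696 of them higher (4.91%) and 498 lower (3.52%) in Y147F. The 3 arrays of one group lay wholly above or below the 3 of the other for 2155 genes (15.2%), 1283 higher (9.06%) and 872 lower (6.16%). The same WT_T3 arrays set against KO_T3 gave 981 calls (6.93%) and against GS_T3 792 (5.59%), and these comparisons share the WT_T3 arrays.

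Differences between Y147F and WT after T3 were small for most genes. The median absolute difference was 0.078 and the median half-width of the 95% interval was 0.202, a factor of 1.15. For 14007 genes (98.9%) the whole interval lay within a 2-fold difference either way, and for 13345 genes (94.2%) within 1.5-fold. These intervals bound the differences and do not show that any gene was equal. Differences of at least 2-fold were measured in 10 genes, Wdfy1 (1.58), Dnase1 (1.41), Ppbp (1.18), Scara3 (1.18), Cd24a (1.17), Clec2h (1.17), Slc15a2 (1.06), Itgb3bp (-1.05), Cyp17a1 (-1.06) and Ppp1r3g (-1.07), named after their values were seen and none of them called. Among the 1503 genes (10.6%) called between T3 and PBS in WT, none was called between Y147F and WT after T3. Of these, 193 (12.8%) had an unadjusted p under 0.05, a larger share than the 8.43% of all genes. Their median absolute difference was 0.091, above the 0.078 of all genes. Both comparisons share the WT_T3 arrays.

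**Figure D1:**
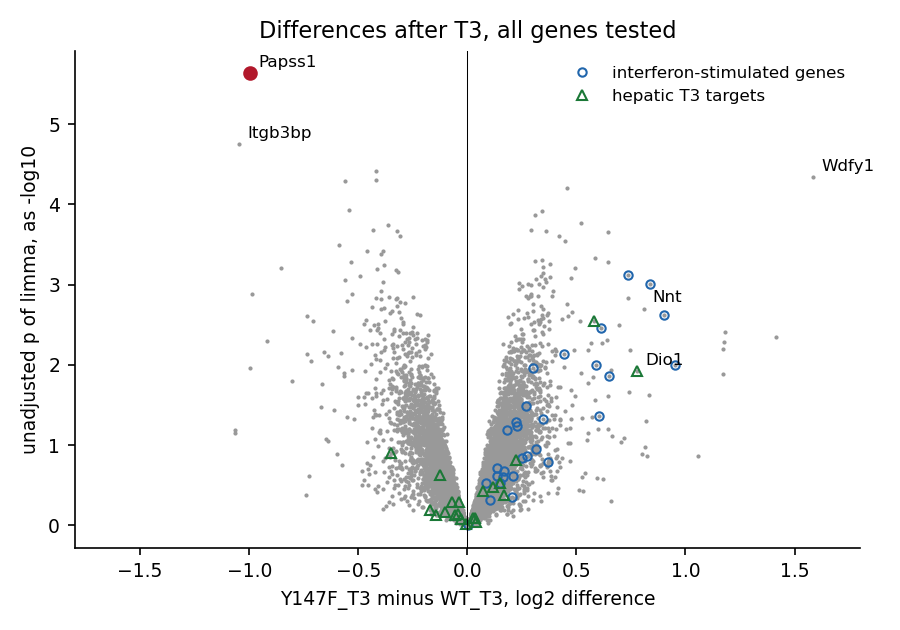
Difference between Y147F_T3 and WT_T3 for each of the 14161 genes tested (horizontal axis, log2) against limma's unadjusted p on a -log10 scale (vertical axis), with 3 arrays per group. The filled red point is Papss1, the gene called, blue circles are interferon-stimulated genes, all at or right of 0, and green triangles are hepatic T3 targets, which lie on both sides.

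Papss1 had levels of 9.57, 9.44 and 9.56 in the WT_T3 arrays and of 8.21, 8.29 and 9.09 in the Y147F_T3 arrays. The groups did not overlap, and 1 Y147F array lay nearer to WT than the other two did. In Y147F mice without T3 the levels were 8.30, 8.42 and 8.50, below those of WT_PBS by 1.08, while the 18 arrays of WT, KO and GS spanned 9.27 to 9.70. All 6 Y147F arrays therefore lay below all 18 others, whether T3 was given or not. The gene is read by 1 probe set. Its call was lost without any single WT_T3 array (adjusted p 0.0618 to 0.131), without Y147F_T3 replicate 1 (0.0919) and without replicate 2 (0.271), and was kept without replicate 3 (-1.28, adjusted p = 1.66e-06). It was also lost with only the groups compared in the fit (adjusted p = 0.50), with only the 12 WT and Y147F arrays (0.31) and when tested against a 1.2-fold difference (0.783). When the 28695 probe sets that passed the filter were tested one by one, none was called. Of these, 4118 had no single gene symbol, and 279 of the 4118 had an unadjusted p under 0.05.

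Wdfy1, an endosomal adaptor protein of Toll-like receptor signalling, showed the largest difference of all genes tested, 1.58 ± 0.31 (95% interval 0.94 to 2.22, adjusted p = 0.122), and was not called. Its levels were 7.32, 7.16 and 7.10 in WT_T3 and 8.68, 8.77 and 8.88 in Y147F_T3. The groups were far apart, with little spread within either. The 18 arrays of WT, KO and GS lay from 7.06 to 7.39. Without T3, 2 Y147F arrays stood at 8.91 and 8.99 and the other at 6.94, so 5 of the 6 Y147F arrays lay above all 18 and 1 below them. Of its 5 probe sets all had a higher mean in Y147F_T3, by 0.41 to 1.94. With only the groups compared in the fit Wdfy1 was called (adjusted p = 0.00126), as it was with array weights (1.57, adjusted p = 0.00966).

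Nnt, the mitochondrial transhydrogenase that makes NADPH, is a gene in which the C57BL/6J stock is known to carry a deletion. It read 10.42, 10.55 and 10.54 in WT_T3 and 10.52, 12.05 and 11.39 in Y147F_T3. Replicate 1 of Y147F_T3 lay within the WT arrays and the others above them. The difference was 0.81 ± 0.23 (adjusted p = 0.33), and without that replicate it was 1.21 and called (adjusted p = 0.00891). Without replicate 2 of Y147F_T3 it was 0.45 (adjusted p = 0.597). It was also called with array weights (1.26, adjusted p = 0.00966). Without T3 the Y147F arrays read 11.69, 11.60 and 11.50, and the 18 arrays of WT, KO and GS lay from 9.98 to 10.82. The difference appeared in 2 of the 3 probe sets of the gene. Alad, an enzyme of heme synthesis, read 12.33, 12.32 and 12.48 in WT_T3 and 11.76, 11.94 and 11.85 in Y147F_T3, and these did not overlap (-0.53 ± 0.17, adjusted p = 0.393). Its Y147F values lay within the 11.47 to 12.55 of the 18 other arrays. Wdfy1, Nnt and Alad belong to a list of 14 genes known to differ between C57BL/6 stocks, of which 13 were tested. At an unadjusted p under 0.05, 2 of the 13 were higher and 1 lower, beside 4.91% and 3.52% of all genes. The median was 0.01, against 0.02 over all genes. The part of the strain stock in any difference was not tested.

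**Figure D2:**
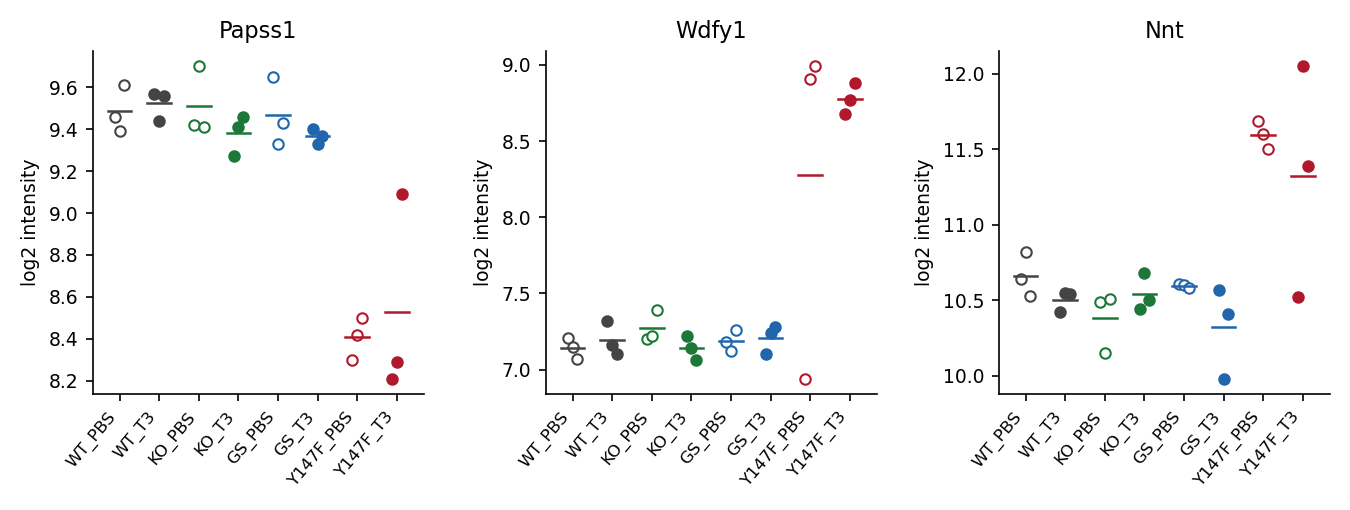
Log2 intensity (vertical axes) of Papss1, Wdfy1 and Nnt in each of the 24 arrays by group (horizontal axes), with filled points for T3, open points for PBS and lines at group means. The 6 Y147F arrays of Papss1 lie from 8.21 to 9.09 and the 18 others from 9.27 to 9.70, while 1 Y147F array of Wdfy1 and 1 of Nnt lie at or near the level of the other genotypes.

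Hepatic T3 targets as a list stood at overlapping levels in Y147F and WT after T3. The Y147F arrays lay wholly above the WT arrays for 4 members, Dio1 and Bcl3 among them, and wholly below for 2. The shares over all genes were 9.06% and 6.16%. Of the 24 genes of the list 21 were tested and none was called. Their median difference was -0.01, beside 0.02 over all genes, with 10 above and 11 below zero. At an unadjusted p under 0.05, 2 were higher, beside 4.91% of all genes, and none was lower. For 19 of them the 95% interval lay within 2-fold either way. The mean level over the list was 11.57, 11.51 and 11.57 in WT_T3 and 11.55, 11.60 and 11.65 in Y147F_T3, so the groups overlapped. Against the same WT_T3 arrays the median was -0.46 in KO_T3, with 7 called lower (3.57% of all genes), and -0.50 in GS_T3, with 10 called lower (2.58% of all genes). From PBS to T3 the list's median difference was 0.75 in WT, with 13 called higher (5.72% of all genes), and 0.72 in Y147F, with 14 called higher (5.52% of all genes).

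Dio1 encodes the type 1 deiodinase, which removes iodine from thyroid hormones and is the classic T3 target of liver. It read 11.33, 10.92 and 11.67 in WT_T3 and 12.18, 11.94 and 12.14 in Y147F_T3. Every Y147F array lay above every WT array. The difference was 0.78 ± 0.28 (95% interval 0.19 to 1.36, adjusted p = 0.465), beside -3.57 in KO_T3 (adjusted p = 3.06e-07) and -3.02 in GS_T3 (adjusted p = 1.29e-06). Bcl3, a nuclear cofactor of NF-kappaB, read 10.27, 10.09 and 10.13 in WT_T3 and 10.71, 10.75 and 10.78 in Y147F_T3. These groups too did not overlap, with Y147F the higher (0.58 ± 0.17, adjusted p = 0.345), where KO_T3 and GS_T3 each differed from WT_T3 by -1.64. Neither gene was called in Y147F under any of the alternatives tried.

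Targets of mitochondrial metabolism were measured closely. Gpd2, the mitochondrial glycerol phosphate dehydrogenase, read 10.81, 10.93 and 10.96 in WT_T3 and 10.85, 10.89 and 10.87 in Y147F_T3, with the Y147F arrays inside the WT range (-0.03, 95% interval -0.32 to 0.26). Idh3a, a subunit of isocitrate dehydrogenase of the citric acid cycle, read 11.59, 11.59 and 11.53 against 11.50, 11.49 and 11.52. All 3 Y147F arrays lay just below the WT arrays, and the interval was -0.29 to 0.15. In KO_T3 and GS_T3 Idh3a was lower than in WT_T3 by about a full log2 unit, at -0.99 and -1.19. Ppargc1a, a coactivator of mitochondrial gene expression, differed by -0.01 in Y147F (95% interval -0.31 to 0.29) and by -0.88 in both KO_T3 and GS_T3.

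Targets of lipid synthesis were at or slightly below the WT level. Thrsp, a T3-induced regulator of lipogenesis, read 14.55, 14.55 and 14.56 in WT_T3 and 14.47, 14.41 and 14.46 in Y147F_T3, slightly lower in each Y147F array (95% interval -0.62 to 0.42). Me1, the cytosolic malic enzyme, read 12.98, 12.66 and 13.44 in WT_T3 and 12.62, 12.62 and 12.79 in Y147F_T3, overlapping (-0.35 ± 0.22, adjusted p = 0.685). Without WT_T3 replicate 3 the difference of Me1 was -0.14, and without WT_T3 replicate 2 it was -0.53. Fasn, fatty acid synthase, differed by -0.17 with an interval of -0.94 to 0.60, wide enough to hold a 1.5-fold difference in either direction. Mlxipl, the carbohydrate-sensing transcription factor ChREBP, differed by -0.04 (-0.29 to 0.21).

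In sterol disposal, Cyp7a1, which starts the classic route from cholesterol to bile acids, read 11.77, 12.10 and 11.96 in WT_T3 and 11.59, 11.97 and 11.82 in Y147F_T3. The arrays overlapped, and the interval of -1.04 to 0.75 was wide. Abcg5 and Abcg8, which together form the sterol exporter of the hepatocyte, differed by 0.04 (-0.30 to 0.38) and -0.06 (-0.42 to 0.31). The remaining targets, Klf9, G6pc, Pck1, Cpt1a, Slc16a10, Hr, Scd1, Shbg and Serpina7, differed by -0.12 to 0.22, with adjusted p of 0.718 or more.

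**Figure D3:**
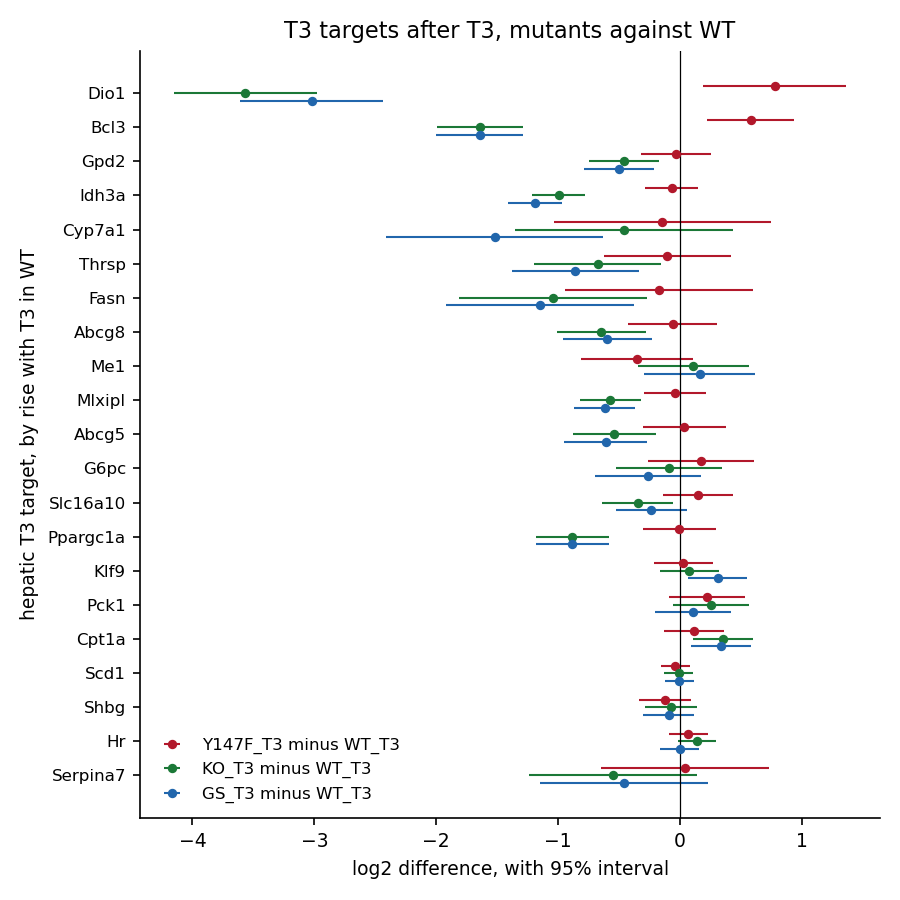
Difference from WT_T3 (horizontal axis, log2, with 95% intervals from limma, 3 arrays per group) of the 21 hepatic T3 targets tested, ordered by their difference between T3 and PBS in WT, for Y147F_T3 in red, KO_T3 in green and GS_T3 in blue. The 3 comparisons share the WT_T3 arrays. The red points of Dio1 and Bcl3 lie at 0.78 and 0.58, and the red intervals of the other genes cross 0.

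The receptor and its partners showed no called difference. Thrb, read by 1 probe set, was at 6.85, 6.38 and 6.76 in WT_T3 and 6.60, 6.66 and 6.35 in Y147F_T3, overlapping (-0.13 ± 0.17, adjusted p = 0.882). An expression array does not read the amino acid change, so this value does not check the genotype. Thra, which encodes the other T3 receptor, differed by 0.05 ± 0.12 in its brightest probe set and by 0.06 and -0.03 in the others. Of 17 receptors, RXRs and coregulators 15 were tested, none had an unadjusted p under 0.05, and the differences ran from -0.13 to 0.19 (median 0.05). Rxra, the main hepatic partner of TRβ, was at 11.49, 11.39 and 11.33 in WT_T3 and 11.54, 11.63 and 11.61 in Y147F_T3, not overlapping (0.19 ± 0.09, adjusted p = 0.595). Of 17 genes of deiodination, transport and binding of thyroid hormone, 13 were tested (median 0.03). Dio1 alone had an unadjusted p under 0.05, beside 8.43% of all genes. The 20 genes tested nearest to Thrb on either side along its chromosome differed by -0.19 to 0.24, with a median of 0, none called, 4 of the 40 with an unadjusted p under 0.05, beside 8.43% of all genes, and 9 with arrays that did not overlap, beside 15.2% of all genes.

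Genes of insulin and PI3K signalling, the pathway to which the tyrosine is linked, differed little at the transcript level after T3. Of 26 genes 24 were tested, none was called, and all 24 had intervals within 2-fold. An unadjusted p under 0.05 was found for 1, beside 8.43% of all genes. Above zero lay 17 and below it 7, where 8188 of all 14161 genes lay above. Without T3, 4 were higher and 1 lower at an unadjusted p under 0.05, beside 13.8% of all genes either way. Their median was 0.08 with T3 and 0.07 without. Insr, the insulin receptor, read 10.81, 10.64 and 10.88 in WT_T3 and 10.95, 10.99 and 11.04 in Y147F_T3, each Y147F array above each WT array (0.21 ± 0.09, adjusted p = 0.546). Foxo1, a transcription factor that insulin keeps out of the nucleus, read 9.67, 9.73 and 9.63 against 9.72, 9.80 and 9.85, with an overlap (0.12 ± 0.09, adjusted p = 0.756). It differed by 0.41 without T3, and was called in the mean of the differences with and without T3 (0.26, adjusted p = 0.0497). Phosphorylation and enzyme activity are not read by an expression array.

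Genes that respond to FOXO1 were mixed, with 9 of 15 above zero and a median of 0.03. Igfbp1, a secreted binding protein of insulin-like growth factors that insulin represses, read 12.68, 12.95 and 12.29 in WT_T3 and 11.49, 11.53 and 12.49 in Y147F_T3. The arrays overlapped through Y147F_T3 replicate 3, and the difference was -0.80 ± 0.30 (adjusted p = 0.498). Among growth hormone and IGF genes 12 of the 15 tested lay above zero (median 0.13), 3 higher and 1 lower at an unadjusted p under 0.05, beside 4.91% higher and 3.52% lower over all genes. Igfbp4, another binding protein of these growth factors, read 13.91, 13.86 and 13.85 in WT_T3 and 14.07, 14.07 and 14.04 in Y147F_T3, small but not overlapping (0.19 ± 0.05, adjusted p = 0.345). Pck2, the mitochondrial form of the gluconeogenic carboxykinase, differed by -0.27 (adjusted p = 0.586). Of 19 genes tested in gluconeogenesis, glycolysis and glycogen (median 0.04) it alone had an unadjusted p under 0.05, beside 8.43% of all genes.

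Cholesterol synthesis and uptake genes lay mostly lower in Y147F, with no gene called. Of the 20 tested of 24, 19 were below zero, none had an unadjusted p under 0.05 and the median was -0.21, beside 0.02 over all genes. Hsd17b7, an enzyme of the later steps, read 10.83, 10.49 and 10.63 in WT_T3 and 10.43, 10.00 and 10.30 in Y147F_T3, the only member whose arrays did not overlap (-0.41 ± 0.21, adjusted p = 0.616). Fdps, which makes farnesyl diphosphate, read 13.10, 12.61 and 13.18 against 12.50, 12.10 and 13.00, overlapping (-0.43, adjusted p = 0.706). The mean level over the list was 10.65 to 11.03 in WT_T3 and 10.45 to 10.90 in Y147F_T3. Without T3 the median was -0.40, with levels of 10.56 to 11.10 in WT_PBS and 10.35 to 10.50 in Y147F_PBS. There 8 of the 20 were lower and none higher at an unadjusted p under 0.05, and none was called. Over all 14161 genes 922 were lower and 1034 higher without T3. Leaving out 1 of the 6 arrays at a time moved the median after T3 between -0.34 and -0.08. Of 22 genes of fatty acid and triglyceride synthesis, 17 were below zero (median -0.11), none with an unadjusted p under 0.05. Bile acid and sterol disposal genes (20 tested, median 0.02) and fatty acid oxidation genes (29 tested, median 0.02) were at the median of all genes.

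Interferon-stimulated genes lay above zero together. These genes are transcribed when type I or type II interferon activates STAT and IRF factors, many through a sequence called the ISRE. Of 33 genes 29 were tested and none was called (smallest adjusted p = 0.269). Of the 29, 12 had an unadjusted p under 0.05, all higher in Y147F, beside 4.91% of all genes, and 15 had Y147F_T3 arrays wholly above WT_T3, beside 9.06% of all genes. All 29 differences were above zero, from 0.00 to 0.95, as were 8188 of the 14161 genes, and their median was 0.27. The genes share regulators, so their counts are not independent.

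The promoters of the 4 members with the smallest p are shown. They were chosen by p and not by this motif, which all 4 hold. Each line gives the 250 bases before the gene's start in RefSeq (GRCm38.p6), 5′ to 3′ on the gene's strand, with the letters GAAANNGAAA, the ISRE core, or their reverse complement in capitals. They are Rsad2 at chr12:26456453-26456702 on the minus strand, Cxcl10 at chr5:92348890-92349139 on the minus strand, Ifit1 at chr19:34640639-34640888 and Ifit3 at chr19:34583279-34583528, both on the plus strand.
Rsad2: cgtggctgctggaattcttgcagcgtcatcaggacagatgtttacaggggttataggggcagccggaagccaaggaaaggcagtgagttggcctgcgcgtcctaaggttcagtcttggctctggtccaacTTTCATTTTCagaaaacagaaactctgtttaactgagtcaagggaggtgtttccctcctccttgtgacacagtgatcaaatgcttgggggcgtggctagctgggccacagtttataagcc
Cxcl10: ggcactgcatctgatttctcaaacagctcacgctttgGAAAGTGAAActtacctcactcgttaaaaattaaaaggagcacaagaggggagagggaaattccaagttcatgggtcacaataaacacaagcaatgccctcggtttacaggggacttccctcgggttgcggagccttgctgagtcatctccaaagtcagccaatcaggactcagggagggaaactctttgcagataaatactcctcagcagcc
Ifit1: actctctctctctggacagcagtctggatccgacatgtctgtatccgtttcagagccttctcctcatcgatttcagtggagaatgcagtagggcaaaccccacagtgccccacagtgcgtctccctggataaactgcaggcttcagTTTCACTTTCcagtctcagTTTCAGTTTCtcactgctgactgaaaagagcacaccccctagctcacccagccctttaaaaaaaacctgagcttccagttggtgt
Ifit3: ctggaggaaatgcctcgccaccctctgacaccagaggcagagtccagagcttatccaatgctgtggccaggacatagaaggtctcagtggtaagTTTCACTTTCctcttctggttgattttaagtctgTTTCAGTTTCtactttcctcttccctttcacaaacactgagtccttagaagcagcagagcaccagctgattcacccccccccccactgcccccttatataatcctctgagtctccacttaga
The motif, searched on both strands of a 300-base window that adds 50 bases after the start, was present for 12 of the 23 list genes found in the table, where 29 were tested, and in 3.44% of the 32851 promoters of the table (3.99% of its genes). Ifit1 and Ifit3 each held 2 copies and Rsad2 and Cxcl10 1. A match of letters is a description and not a measured site.

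Rsad2, the antiviral enzyme viperin, whose promoter holds a single copy, read 7.83, 7.78 and 7.44 in WT_T3 and 8.58, 8.79 and 7.89 in Y147F_T3. The groups did not overlap, with the third Y147F array close to WT (0.74 ± 0.19, adjusted p = 0.269). Cxcl10, a chemokine that attracts T cells, read 5.87, 6.03 and 5.70 against 6.31, 6.91 and 6.90 (0.84 ± 0.22, adjusted p = 0.269). Ifit1 and Ifit3 encode proteins that bind viral RNA. Ifit1 read 6.81, 6.76 and 6.68 in WT_T3 and 7.62, 8.11 and 7.22 in Y147F_T3 (0.90 ± 0.26, adjusted p = 0.339). Ifit3 read 8.20, 8.23 and 8.10 against 8.79, 8.93 and 8.65 (0.61 ± 0.18, adjusted p = 0.364). In all 4 genes each Y147F array lay above each WT array. These 4 genes were called when arrays were weighted (adjusted p 0.00966 to 0.0498) and under no other alternative.

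The mean level of the 29 genes was lowest in the WT_T3 arrays, next to which lay a KO_PBS array at 8.08. It was 8.06, 8.07 and 7.99 in WT_T3 and 8.34, 8.47 and 8.38 in Y147F_T3. Every array of the other groups lay between 8.08 and 8.63, a range that holds the 3 Y147F_T3 arrays and none of the WT_T3 arrays. Against the same WT_T3 arrays the list's median was 0.35 in KO_T3 and 0.41 in GS_T3, and these share the WT_T3 arrays with the value of 0.27. Without T3 the median of Y147F against WT was 0.02, with 16 of 29 above zero. From PBS to T3 the median was -0.24 in WT, with 7 of 29 above zero, and 0.12 in Y147F, with 18 above zero. The difference of these T3 responses had a median of 0.25, with 28 above zero and no gene called.

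Markers of immune cells were set beside this list. Kupffer cell markers, 15 tested, had a median of 0.09, none with an unadjusted p under 0.05, and mean levels of 8.73 to 9.07 in WT_T3 and 8.90 to 8.97 in Y147F_T3. Lymphocyte markers, 10 of 17 tested, had a median of -0.08 and levels of 6.45 to 6.67 and 6.39 to 6.49, and Cd3g, Cd79a and Gzma were below the filter. Neutrophil and monocyte markers, 7 of 11 tested, had a median of -0.10 and levels of 6.29 to 6.45 and 6.11 to 6.56. The levels of the 2 groups overlapped for all 3 lists. MHC genes, which present antigen and are also raised by interferon, had 11 of 11 above zero and a median of 0.16. Over all genes 8188 of 14161 lay above zero. Against the same WT_T3 arrays all 11 were also above zero in KO_T3 (median 0.29) and GS_T3 (median 0.46). Without T3 the median of Y147F against WT was -0.04, with 5 of 11 above zero. From PBS to T3 the median was -0.28 in WT and 0.02 in Y147F. Tap1, a peptide transporter of antigen presentation, read 7.79, 7.58 and 7.95 in WT_T3 against 8.14, 7.98 and 8.12 in Y147F_T3, just short of overlap (0.305 ± 0.127, adjusted p = 0.545). The part of these cells in the interferon values was not tested beyond these levels.

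**Figure D4:**
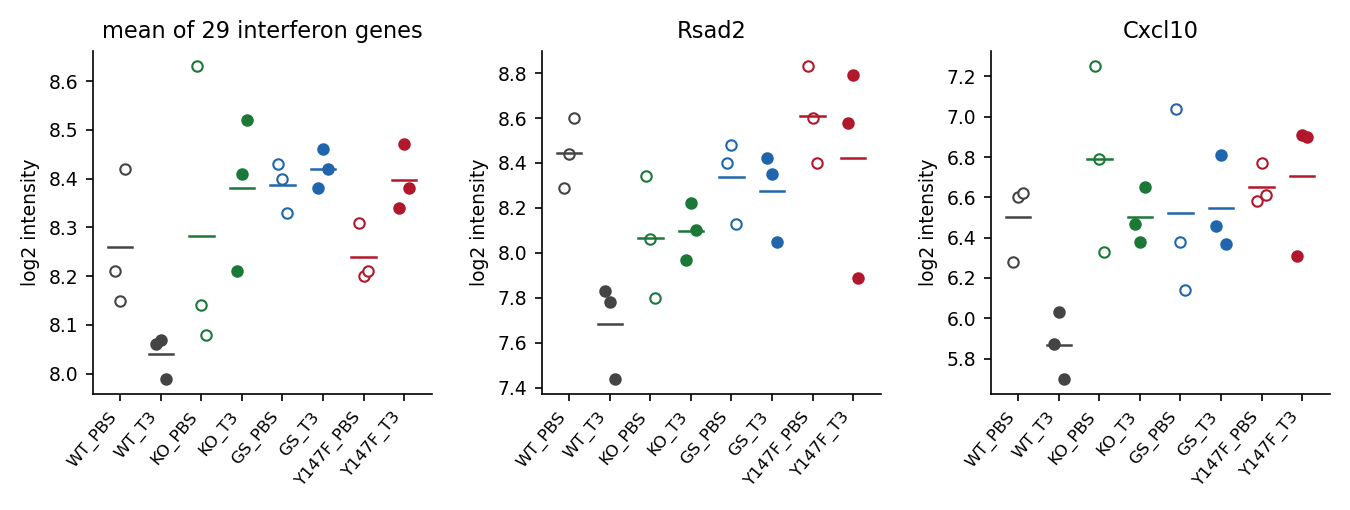
Mean log2 intensity of the 29 interferon-stimulated genes tested, and log2 intensity of Rsad2 and Cxcl10 (vertical axes), in each of the 24 arrays by group (horizontal axes), with filled points for T3, open points for PBS and lines at group means. The 3 WT_T3 arrays lie from 7.99 to 8.07 in the left panel, below all others, and the 3 Y147F_T3 arrays from 8.34 to 8.47.

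Other cell types were compared through their markers. Of 14 sinusoidal endothelial markers 12 lay above zero (median 0.18) and 5 had an unadjusted p under 0.05, all higher. Over all genes 8188 of 14161 lay above zero, and 4.91% were higher at an unadjusted p under 0.05. Stab2, a scavenger receptor of these cells, read 9.95, 9.78 and 9.86 in WT_T3 and 10.20, 10.09 and 10.20 in Y147F_T3, not overlapping (0.30 ± 0.10, adjusted p = 0.415). The list's level was 8.85 to 8.98 in WT_T3 and 8.98 to 9.20 in Y147F_T3, touching at 8.98, and without T3 the median was 0.13. Cholangiocyte markers, 7 of 11 tested, had a median of 0.24 with T3 and -0.13 without, with levels of 6.17 to 6.33 and 6.28 to 6.69 after T3. Stellate cell markers, 14 tested, had a median of 0.01. Among them Rgs5, a regulator of G protein signalling in pericytes, read 9.57, 10.13 and 10.14 in WT_T3 and 9.53, 9.28 and 9.25 in Y147F_T3, lower in each Y147F array (-0.59 ± 0.21, adjusted p = 0.457). No marker of any cell type was called.

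Stress and rhythm genes gave single differences, none of them called. Hspa1b, an inducible HSP70 chaperone, read 8.54, 8.45 and 9.14 in WT_T3 and 9.15, 9.28 and 10.21 in Y147F_T3, barely apart (0.83 ± 0.34, adjusted p = 0.536), and differed by 0.755 without T3. Immediate early genes, transcribed within minutes of a stimulus, had 14 of 18 above zero and a median of 0.18, and Btg2, an antiproliferative member, differed by 0.495 (adjusted p = 0.537). Of 21 genes tested that respond to stress of the endoplasmic reticulum or to ATF4, 8 lay above and 13 below zero (median -0.02). Their arrays did not overlap for 1 higher and 3 lower, beside 9.06% and 6.16% of all genes. Creld2 and Manf, among the 3, differed by -0.50 and -0.25. Rora, a nuclear receptor of the clock, differed by -0.29. Of 19 clock genes (median -0.08) it alone had an unadjusted p under 0.05, beside 8.43% of all genes. Of 24 acute phase genes 18 were above zero (median 0.09). Of 17 hepatocyte transcription factors tested, 9 lay above and 8 below zero (median 0.06). Their arrays did not overlap for 4 higher and 1 lower, beside 9.06% and 6.16% of all genes. Among the 4, Hnf4a and Cebpa, which specify hepatocytes, differed by 0.16 and 0.21, and neither was called.

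Mitochondrial genes were close to the median of all genes as lists, and differed within them. Of 26 subunits of oxidative phosphorylation 14 lay above zero and the median was 0.01. Ndufa4, a small subunit of the respiratory chain, read 13.23, 13.22 and 13.26 in WT_T3 and 13.12, 12.89 and 12.75 in Y147F_T3, lower in each Y147F array (-0.32 ± 0.11, adjusted p = 0.424). Atp5a1, the alpha subunit of ATP synthase, read 13.69, 13.65 and 13.65 against 13.76, 13.84 and 13.86, higher in each (0.16 ± 0.06, adjusted p = 0.528). Without T3 these genes differed by -0.405 and 0.125. Pdp2, a phosphatase that activates pyruvate dehydrogenase, differed by 0.23 after T3, overlapping, and by 0.45 without T3, where it was called.

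Male-biased output genes of the liver, controlled by pulses of growth hormone, had 9 of 12 above zero and a median of 0.18 after T3. Without T3 their median was -0.24. The difference of T3 responses had a median of 0.48 with 12 of 12 above zero, and no gene was called. After T3 the median moved between 0.02 and 0.31 when 1 array was left out at a time, and between -0.02 and 0.18 under the other alternatives, so its direction was not fixed. Cyp2d9, a male-biased cytochrome P450, read 13.75, 13.73 and 13.65 in WT_T3 and 13.82, 13.83 and 13.92 in Y147F_T3, not overlapping (0.15 ± 0.06, adjusted p = 0.542). Female-biased genes, 11 of 21 tested, had a median of -0.13.

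Outside these lists, genes among those next to Papss1 in order of p were examined after their values were seen. Itgb3bp, a centromere protein also known as a coactivator of thyroid hormone receptor and RXR, read 5.82, 6.43 and 6.49 in WT_T3 and 5.28, 5.24 and 5.08 in Y147F_T3 (-1.05 ± 0.19, adjusted p = 0.122). The groups did not overlap. The WT_PBS arrays, at 5.25, 5.68 and 5.60, lay below WT_T3, and 2 of them lay above all Y147F_T3 arrays. Itgb3bp was called without WT_T3 replicate 1 (-1.26, adjusted p = 0.0239), with array weights (adjusted p = 0.00966) and in the mean of the differences with and without T3 (adjusted p = 0.0463). Without T3 it differed by only -0.12, so the call in that mean rests mostly on the same T3 arrays. Its Y147F_T3 levels lay below the 40th percentile of those arrays, 5.36 to 5.42, so the size of its difference is uncertain. Rspo3, a Wnt agonist made by endothelium of the central vein, read 7.57, 7.70 and 7.34 in WT_T3 and 6.73, 7.13 and 7.07 in Y147F_T3 (-0.56 ± 0.11, adjusted p = 0.122), and differed by 0.16 without T3. It was called with array weights (-0.45, adjusted p = 0.0276). Genes of pericentral hepatocytes, whose zone Wnt maintains, had 8 of 16 above zero and a median of 0. Dnase1, a secreted nuclease, had the second largest difference, 1.41 ± 0.44 (adjusted p = 0.393).

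The same genotypes without T3 served as a reference with no array in common. Between Y147F_PBS and WT_PBS 12 genes (0.0847%) were called, 6 higher (0.0424%) and 6 lower (0.0424%), and 1956 (13.8%) had an unadjusted p under 0.05. With arrays set to a common median the count was 23, of which 18 were higher, and it was 3 under quantile normalisation. The 12 were Papss1, Erdr1, Hcar2, Snhg6, Lce3b and 4930463O16Rik, lower, and Sbk1, Slc2a9, Fn3k, Pdp2, Stat5b and Cyb5d1, higher. After T3, 11 of the 12 differed in the same direction, and the arrays of Papss1, Snhg6, Sbk1 and Cyb5d1 did not overlap on that side. Snhg6, a host gene of small nucleolar RNA, differed by -0.81 without T3 and by -0.37 after it (adjusted p = 0.545). Stat5b, which carries the growth hormone signal, differed by 0.45 without T3 and by -0.01 after it (95% interval -0.18 to 0.17). Leaving out 1 array at a time gave 0 to 23 calls without T3, with 0 without WT_PBS replicate 3 or Y147F_PBS replicate 2, 1 without WT_PBS replicate 2, 3 without Y147F_PBS replicate 3 and 23 without Y147F_PBS replicate 1.

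Across the 14161 genes the differences with and without T3 correlated at r = 0.29 and rho = 0.29. This is a description over genes, which are not independent replicates, and the pairs share the deposit and the strain stock on each side. The direction was the same for 61.1% of genes. Of the 1956 genes with an unadjusted p under 0.05 without T3, 1477 (75.5%) lay in the same direction after T3, 302 (15.4%) also had an unadjusted p under 0.05 in that direction, and 18 had one in the opposite direction. Papss1, Wdfy1 and Nnt were among the genes with large values on both axes.

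**Figure D5:**
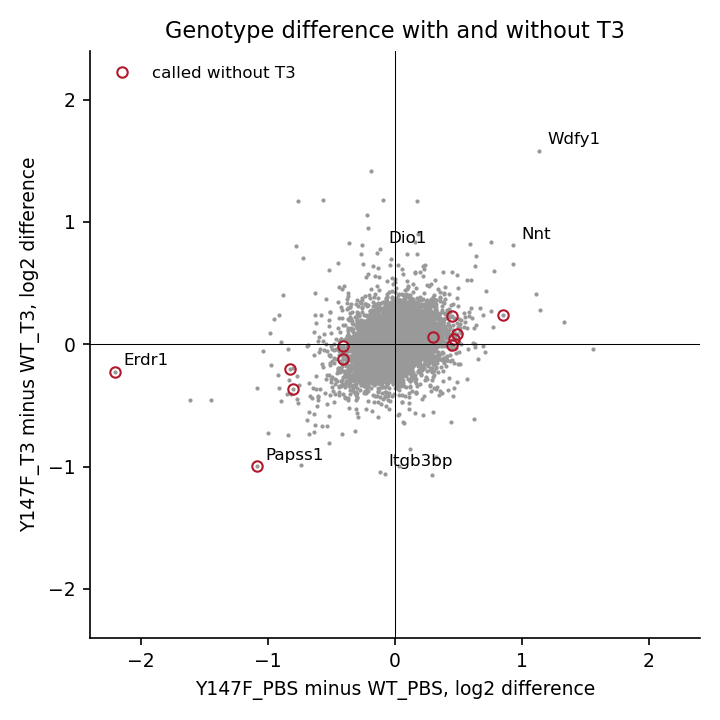
Difference between Y147F and WT with T3 (vertical axis, log2) against the difference without T3 (horizontal axis, log2) for each of the 14161 genes, 3 arrays per group and no array shared. Red circles mark the 12 genes called without T3. Papss1 lies at -1.08 and -0.996, Wdfy1 at 1.13 and 1.58, and Erdr1 at -2.21 and -0.22.

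The test of the difference itself, the T3 response of Y147F less that of WT, called no gene (smallest adjusted p = 0.308). An unadjusted p under 0.05 was found for 756 genes (5.34%). The median 95% half-width of this contrast was 0.285, a factor of 1.22, and for 11831 genes (83.5%) the interval lay within 1.5-fold. For Papss1 the T3 response was 0.04 in WT and 0.12 in Y147F. Dio1 read 4.49 to 5.06 in WT_PBS and 4.46 to 4.63 in Y147F_PBS, all below the 40th percentile of these arrays, which was 5.32 to 5.45. The size of its T3 response is therefore uncertain, and the responses of the genotypes are not compared for this gene.

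The mean of the differences with and without T3, a contrast added after the data were seen, called 115 genes (0.812%), 50 higher (0.353%) and 65 lower (0.459%) in Y147F, which is a comparison of genotype and submission together. With arrays set to a common median it called 62, of which 37 were higher. Papss1 led it (-1.04 ± 0.11, adjusted p = 7.96e-05), followed by Wdfy1 (1.36 ± 0.22, adjusted p = 0.0169), and it included Nnt (0.87, adjusted p = 0.0207). Lgmn, a lysosomal protease, differed by 0.64 after T3 and 0.63 without, and Wfdc21 by -0.49 and -0.54. Rpa3, a subunit of the single-strand DNA binding complex, differed by -0.55 and -0.68. Leaving out 1 array at a time gave counts from 1, without WT_PBS replicate 2, to 235, without WT_PBS replicate 1, with 2 without Y147F_T3 replicate 3. With only the 12 WT and Y147F arrays the count was 2, and with array weights 486.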

How the data were processed

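Liver RNA, 200 ng per sample, was read on Affymetrix mouse arrays of 45101 probe sets. The authors deposited log2 values summarised by RMA, per the submitters' processing notes, with its version not given in the sources used here. The 6 deposited Y147F columns held the digits of log2 values without a decimal mark. The mark was restored so that values lay from 3 to 16, and cells that could be spreadsheet day numbers were set missing (781 of 270606, 0.289%, 380 of them in Y147F_T3). Removing the marks from the 18 intact columns and restoring them gave 0 wrong values of 809299, which checks the steps and not the assumption.

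A probe table named 34958 probe sets with 1 symbol, 932 with several and 9211 with none. The brightest probe set stood for each of 18194 genes, and tests covered genes at or above the 40th percentile of an array in 3 or more arrays. Of 14161 genes tested, 232 had a missing cell and were fitted without it. In R 4.3.3 with limma 3.58.1, 1 model with 8 group means was fitted to the 24 arrays (16 residual and 4.28 prior degrees of freedom), two-sided, with Benjamini-Hochberg adjustment over all genes. The steps were tested on simulated data. Arrays were treated as different animals, since no number in the titles recurs, and p-values measure the spread between these samples.

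The comparison, its gene lists and its alternatives were chosen with earlier results of these data known. Named were up to 15 called genes per direction whose groups did not overlap, both receptors, all T3 targets, up to 4 members per list with the smallest p, and up to 8 genes per direction called in the T3 response. Other genes named were chosen after their values were seen.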

Additional observations from a re-analysis of the deposited data

How the results depend on the processing

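The single call after T3 depended on the fit. It was 0 with only the 12 WT and Y147F arrays, at a 2-fold threshold and in the test against 1.2-fold, 93 with array weights (41 higher, 52 lower), and 0 to 1 when 1 array was left out, the gene then being Papss1, Nnt, Itgb3bp or Rbm45. With only the groups compared it was 1, Wdfy1 and not Papss1. The T3 response contrast had 0 calls under all alternatives but 1, with 0 to 1 when 1 array was left out (1 without WT_T3 replicate 3). Without T3 the 12 calls became 3 under quantile normalisation, 23 with a common array median, 6 without a filter, 20 with a variance trend and robust moderation, 1 with only the groups compared, 0 with the 12 arrays, 33 with array weights, 2 at 2-fold, 0 against 1.2-fold and 0 to 23 when 1 array was left out. For the mean of both, the 115 calls became 62 with a common median, 55 without a filter, 178 with a filter at the 60th percentile, 58 with the mean of probe sets, 181 with the variance trend, 2 with only the groups compared, 2 with only the 12 arrays, 486 with array weights, 4 at 2-fold, 1 against 1.2-fold and 1 to 235 when 1 array was left out. KO_T3 gave 647 with only the groups compared, 87 at 2-fold, 120 against 1.2-fold and 603 to 774 when 1 array was left out. GS_T3 gave 68, 97 and 383 to 526 for the last 3 of these, and with a common median 569 (247 higher). Stricter thresholds and fewer arrays apart, the cause was not tested. The alternatives for KO_T3, GS_T3, the mean of both and the list medians were chosen after seeing the data. For 35 genes, 594 values were recomputed for the comparison after T3, of which none reversed a call, 8 gained and 8 lost one. Rescaling moved the median of all genes from 0.022 to 0.015. No paired analysis was possible because the animal numbers in the titles are not shared between groups.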
